A study of Mus musculus with 9 samples.

Results

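The genes described here are the matrix metalloproteinases (Mmp), the secreted metalloproteinases with thrombospondin repeats (Adamts) and their tissue inhibitors (Timp). They were taken as every row of the deposited gene table whose symbol is Mmp, Adamts or Timp followed by a digit. This gave 45 of 19481 genes, namely 22 Mmp, 19 Adamts and 4 Timp genes. The tumors grew from KLN205, a line of mouse squamous cell lung carcinoma, under the skin of female DBA/2 mice that were 6 to 8 weeks old at injection. The cells carried a lentiviral, doxycycline-inducible SMART vector with a scrambled shRNA (control) or with shRNA sh2 or sh3 against *Tmprss11b*, a membrane serine protease of squamous cancers. All groups, the control included, were kept on doxycycline water once the mean tumor volume had reached 100 mm3, and tumors were taken on day 50, with 3 tumors per group labelled as biological replicates. The shRNA acts only in the transduced, puromycin-selected carcinoma cells, whereas the RNA came from pieces of whole tumor that also hold the host's own cells, so fewer cells of a type and less RNA per cell cannot be told apart.

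Matrix metalloproteinases are zinc enzymes that cut collagens, proteoglycans and other matrix proteins, and many are made as inactive precursors that other proteases open. The ADAMTS enzymes cut proteoglycans such as versican and aggrecan, remove the ends of procollagens or shape microfibrils, and the TIMPs bind and block these enzymes. In tumors they come from carcinoma cells, fibroblasts, macrophages and neutrophils alike.

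The total count per tumor ranged from 20653219 to 24047784, and 3 counts corresponded to 0.123 to 0.152 CPM (counts scaled by the tumor's total and TMM factor), a floor that covers counting error only. The targeted gene, listed as *Tmprss11bnl*, had 18, 51 and 42 counts in the control tumors, 7, 2 and 5 in the sh2 tumors and 10, 4 and 5 in the sh3 tumors. Summed markers of 5 cell types were present in all tumors. Carcinoma markers (9 genes) summed to 2502 to 5317 CPM, fibroblast markers (9 genes) to 1437 to 5654 CPM and macrophage markers (7 genes) to 901 to 4237 CPM. Neutrophil markers (6 of 7 found by symbol) were lower, at 55.2 to 182 CPM, and endothelial markers (5 genes) summed to 138 to 242 CPM. Skeletal muscle markers (5 genes) varied most, from 1.21 CPM to 2560.1 CPM in control replicate 3. The library of control replicate 1 is named by another pattern than the other 8, and what this marks is not given in the sources used here.

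Of the Mmp genes, 10 lie side by side on chromosome 9 within 427.072 kb, at chr9:7272514-7699585 of GRCm38 in the GENCODE M21 annotation, the genome version also known as mm10. In order along the chromosome they are *Mmp13*, *Mmp12*, *Mmp1b*, *Mmp3*, *Mmp1a*, *Mmp10*, *Mmp8*, *Mmp27*, *Mmp20* and *Mmp7*. *Mmp1b* lies on the minus strand and overlaps *Mmp12*, *Mmp1a* is annotated as a polymorphic pseudogene, and *Mmp20* was not analysed here. Promoters of this family are known for binding sites of AP-1, the Fos and Jun transcription factors. The motif TGANTCA, which reads the same on both strands, was therefore searched in the RefSeq promoters of GRCm38.p6, from 250 bases before to 50 bases after each start site. No other motif was searched. It was found in 8 of the 10 genes of this stretch, in 0 of the 22 other matched members and in 8.97% of all 27025 genes with a promoter in that table. The stretches that follow are shown because all 7 analysed members whose promoter held the motif lie in this row of genes. Each runs 5′ to 3′ over the 100 bases before the start site, with the motif in capitals.
*Mmp13*, chr9:7272414-7272513, plus strand: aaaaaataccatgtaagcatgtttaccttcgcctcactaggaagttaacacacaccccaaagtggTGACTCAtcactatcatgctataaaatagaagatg
*Mmp12*, chr9:7347274-7347373, plus strand: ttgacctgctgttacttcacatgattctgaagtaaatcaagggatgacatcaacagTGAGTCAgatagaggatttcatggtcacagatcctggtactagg
*Mmp1b*, chr9:7388027-7388126, minus strand: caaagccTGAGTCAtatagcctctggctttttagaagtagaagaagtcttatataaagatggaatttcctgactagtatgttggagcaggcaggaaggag
*Mmp3*, chr9:7445722-7445821, plus strand: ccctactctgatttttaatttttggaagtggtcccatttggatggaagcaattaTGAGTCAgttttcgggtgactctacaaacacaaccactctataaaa
*Mmp1a*, chr9:7464041-7464140, plus strand: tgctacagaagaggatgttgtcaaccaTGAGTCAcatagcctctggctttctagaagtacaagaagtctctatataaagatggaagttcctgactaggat
*Mmp10*, chr9:7502242-7502341, plus strand: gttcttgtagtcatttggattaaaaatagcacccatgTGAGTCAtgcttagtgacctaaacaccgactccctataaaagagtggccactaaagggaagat
*Mmp7*, chr9:7691990-7692089, plus strand: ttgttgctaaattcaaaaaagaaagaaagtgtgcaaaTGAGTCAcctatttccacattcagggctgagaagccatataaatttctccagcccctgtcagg

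The match is to letters only, and the levels of these neighbours differed widely. Per length of transcript, *Mmp13* had a mean of 701 TPM (the deposited values per length and depth, which add up alike in each tumor) over the 9 tumors, *Mmp3* 151 TPM, *Mmp12* 64.5 TPM and *Mmp10* 37.5 TPM. The other genes with the motif were close to 0, since *Mmp1b* had a mean of 0.285 TPM, *Mmp7* 0.0602 TPM and *Mmp1a* 0.0109 TPM. *Mmp8* and *Mmp27*, which lacked the motif in this window, had means of 1.08 and 0.72 TPM. Together the 9 analysed genes of the stretch made up 51.7% to 80.1% of all Mmp TPM in a tumor. Of the 7 Fos and Jun genes, all of which passed the filter, 3 were higher and 4 lower with sh2, and 5 were higher and 2 lower with sh3. Their median log2 fold change was −0.05 with sh2 and 0.16 with sh3, and none had an adjusted p under 0.05 (edgeR).

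Across all members, *Mmp13*, a collagenase, was the most abundant by mean TPM. *Timp2* followed with 333 TPM, then *Mmp14* with 205 TPM, *Mmp3* with 151 TPM and *Timp1* with 135 TPM. The ranges over the 9 tumors of these 5 genes overlapped, except that every tumor's *Timp2* level (244 to 458 TPM) was above every tumor's *Timp1* level (87.7 to 187 TPM). Outside the chromosome 9 stretch, *Mmp2* (63.8 TPM), *Timp3* (36.3 TPM), *Mmp9* (31.1 TPM), *Adamts4* (30.8 TPM) and *Adamts1* (23.9 TPM) came next. No Adamts gene had a higher mean TPM than *Adamts4*. At the low end, 9 members did not pass the filter on low counts and were not tested: *Mmp1a*, *Mmp1b*, *Mmp7*, *Mmp21*, *Adamts3*, *Adamts18*, *Adamts19*, *Adamts20* and *Timp4*. *Mmp7*, the matrilysin of many epithelia, had between 0 and 3 counts per tumor. *Timp4* had 1, 1 and 6 counts in the control tumors, 0, 0 and 2 in the sh2 tumors and 1, 0 and 0 in the sh3 tumors.

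**Figure D1:**
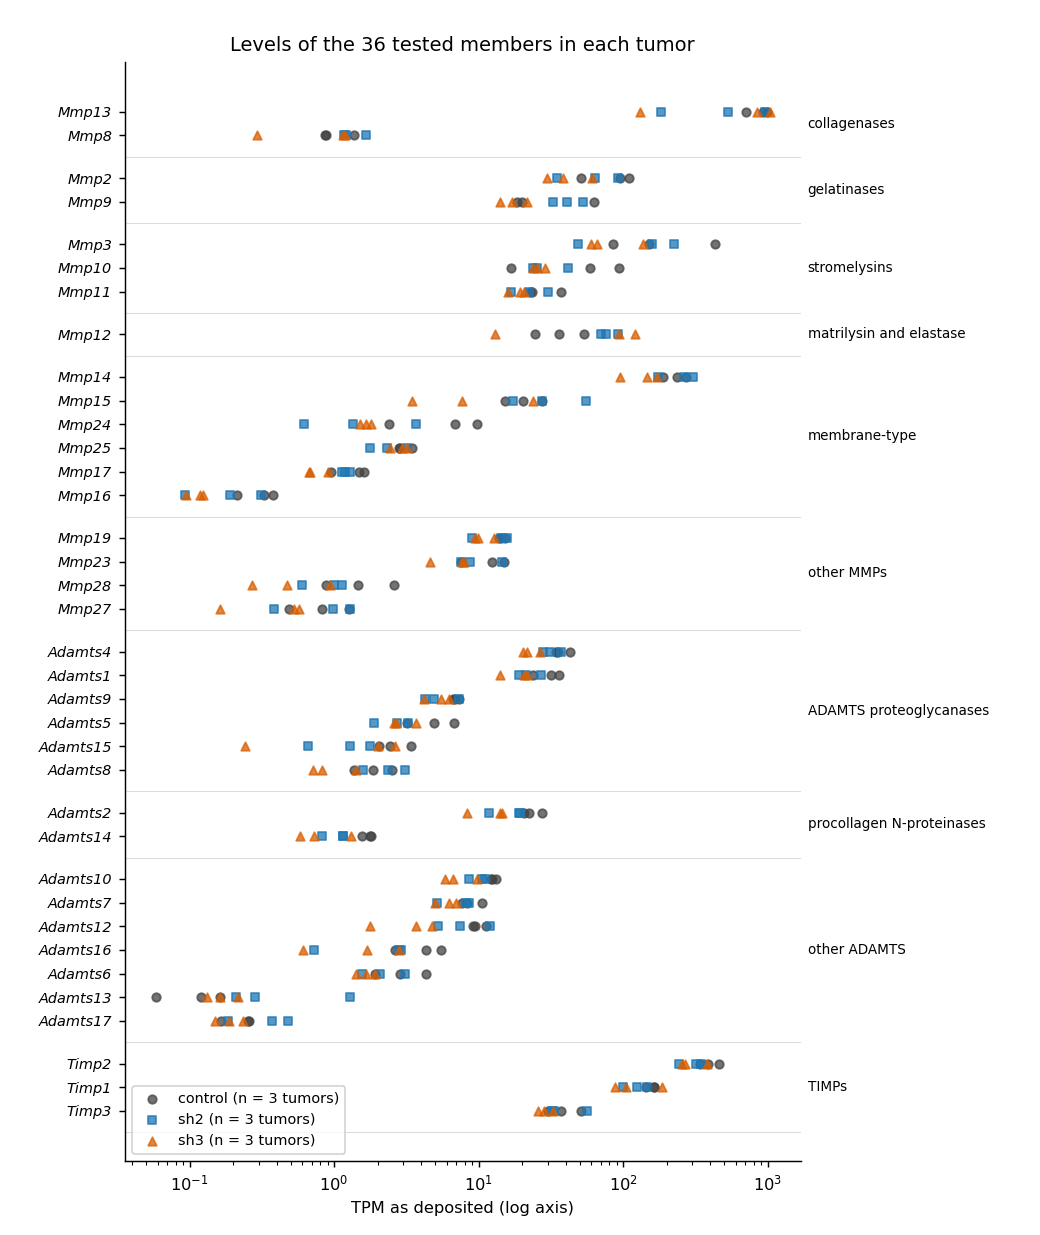
Levels of the 36 tested members in TPM (x axis, logarithmic), grouped by role and ordered by mean level, with 1 point per tumor. *Mmp13* reached 1038 TPM, *Timp2* was always above *Timp1*, and most genes spread over their groups with sh3 tumors (triangles) often at the low side.

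In total 36 of the 45 members passed the filter, 18 Mmp, 15 Adamts and 3 Timp genes. None had an adjusted p under 0.05 in any comparison with the control or between the shRNAs. The test was edgeR's quasi-likelihood test with Benjamini-Hochberg adjustment over all 14725 genes tested, and the background was 0% of all genes called in each comparison. The lowest adjusted p of a member was 0.999 with sh2, 0.753 with sh3, 0.982 for the mean of both shRNAs and 0.673 for sh3 against sh2. At an unadjusted p under 0.05 there were 3 members with sh2 (background 3.52% of all genes, 518 genes) and 8 with sh3 (6.63%, 976 genes). For the mean of both there were 7 members (4.09%, 602 genes) and for sh3 against sh2 4 members (7.18%, 1057 genes). DESeq2 called 2 genes with sh2 (0.0136% of those tested), 41 with sh3 (0.278%), 9 for the mean of both (0.0611%) and 46 for sh3 against sh2 (0.312%). The likelihood ratio test of edgeR called 0 genes with sh2, 8 with sh3 (0.0543%), 8 for the mean of both (0.0543%) and 14 for sh3 against sh2 (0.0951%). No member was among them.

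In direction, most members were lower in shRNA tumors. With sh2 26 of the 36 were lower than in the control, beside 48.2% of all genes, and with sh3 33 of the 36 were lower, beside 45.1% of all genes. The median log2 fold change of the members was −0.28 with sh2 and −0.55 with sh3, while the median of all genes was 0.009 and 0.03. Of the members 25 (69.4%) were lower with each shRNA and 2 (5.56%) higher with each, *Mmp12* and *Adamts13*. Among all genes 28.2% were lower with each and 34.9% higher with each. Both comparisons used the same 3 control tumors, so their directions are not independent. Without control replicate 1 the median of the members was −0.20 with sh2 and −0.42 with sh3.

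By family, without a test between families, the medians were as follows. The Adamts genes had a median log2 fold change of −0.30 with sh2 and −0.54 with sh3, and 12 and 14 of the 15 tested were lower. The Mmp genes had medians of −0.18 and −0.62, with 12 and 16 of 18 lower. Without control replicate 1 the Mmp medians were 0.01 and −0.34 and the Adamts medians −0.28 and −0.57. For the 3 tested Timp genes the medians were −0.30 and −0.22, and −0.19 and −0.12 without control replicate 1.

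**Figure D2:**
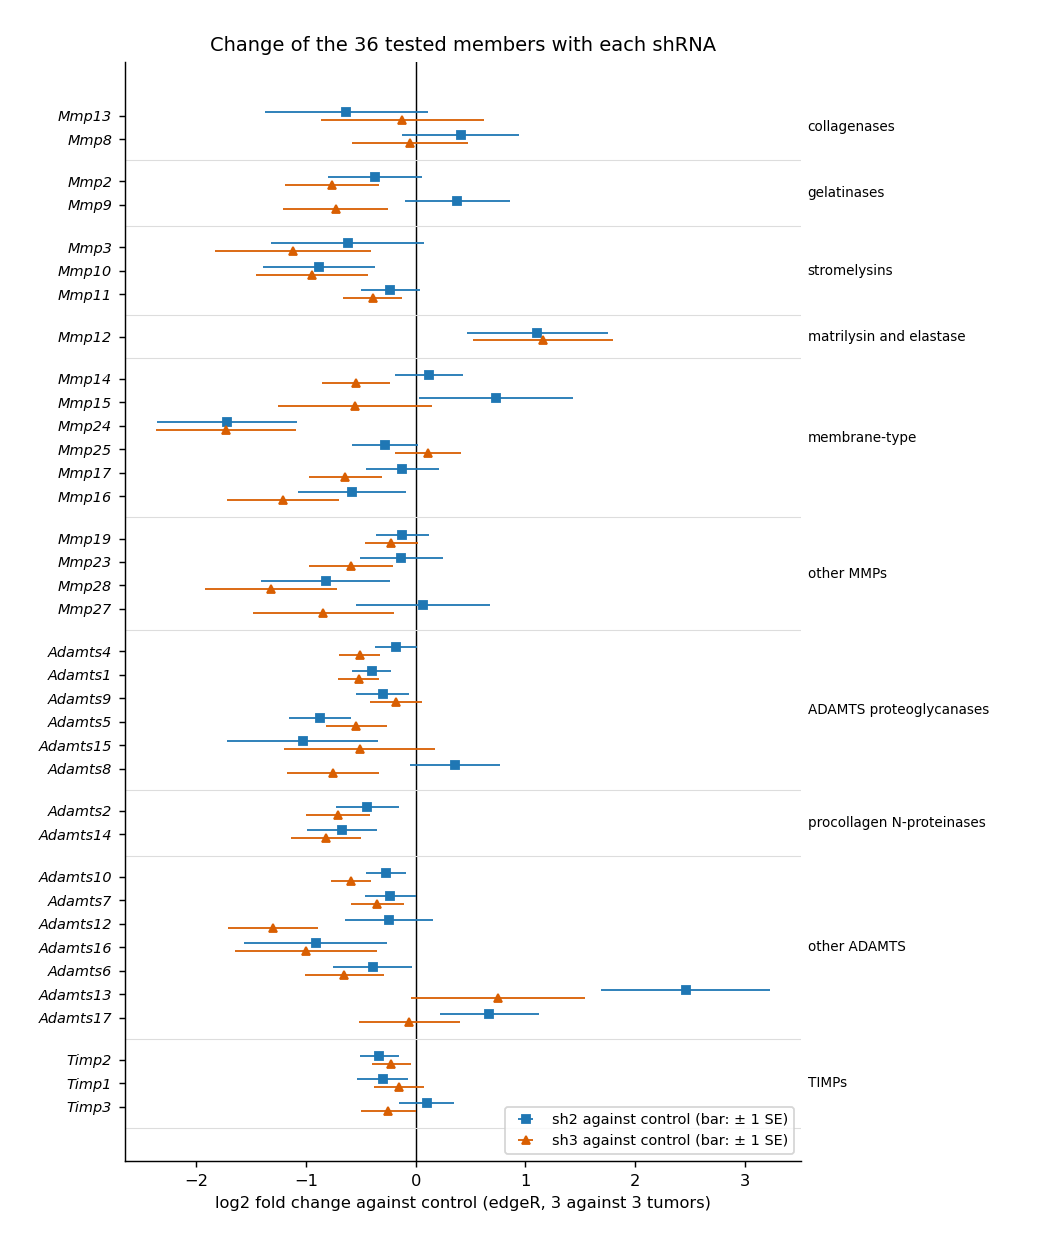
Log2 fold change of each of the 36 tested members against the control (x axis) with sh2 (squares) and sh3 (triangles), with bars of 1 SE. With sh3 33 of 36 points lie below 0, against 26 with sh2, while *Mmp12* and *Adamts13* lie above 0 with both.

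Markers of several host cell types also had lower estimates with sh3, fibroblast markers among them. Their summed level was 5654, 3271 and 4006 CPM with the control, 3219.7, 2521 and 4188 CPM with sh2 and 1855, 2496 and 1437 CPM with sh3. Every sh3 tumor was below every control tumor, and the sh2 tumors overlapped the control. All 9 of these markers had lower estimates with sh3 and 8 of 9 with sh2, with median log2 fold changes of −1.17 and −0.38 (lowest adjusted p 0.753 and 0.999, edgeR). None of the 9 was at 0. Adipocyte markers (3 of 4 tested) summed to 19.1, 43.7 and 29.9 CPM with the control, 0.337, 0.435 and 34.3 CPM with sh2 and 4.12, 1.42 and 0.257 CPM with sh3. All 3 tested were lower without overlap with sh3, beside 5.44% of all genes, and had lower estimates with sh2. Adipoq reached at most 4.06 CPM and Plin1 at most 1.66 CPM, and both were at 0 in sh3 replicate 3. Endothelial markers summed to 204 to 242 CPM with the control, 185 to 216 CPM with sh2 and 138 to 215 CPM with sh3, and had lower estimates in 5 of 5 with sh3 and 4 of 5 with sh2 (medians −0.40 and −0.23). Mast cell markers (5 genes) summed to 18.7 to 40.1 CPM, 13.3 to 21.1 CPM and 17.2 to 21.8 CPM in the same order, and had lower estimates in 4 of 5 with sh3 and 5 of 5 with sh2 (medians −0.91 and −0.93). The mast cell medians were −0.17 and −0.57 without control replicate 1. Skeletal muscle markers summed to 12 to 2560.1 CPM with the control, 1.21 to 87.2 CPM with sh2 and 68.9 to 832 CPM with sh3. They had lower estimates in 5 of 5 with sh3 and 5 of 5 with sh2 (medians −1.52 and −4.45). Not all lists went this way. Macrophage markers had lower estimates in 3 of 7 with sh3 and 6 of 7 with sh2 (medians 0.08 and −0.29). Neutrophil markers had lower estimates in 4 of 5 tested with sh3 and 1 of 5 with sh2 (medians −0.36 and 0.40), and medians of 0.47 and 1.26 without control replicate 1. Carcinoma markers had lower estimates in 6 of 9 with sh3 and 5 of 9 with sh2 (medians −0.13 and −0.50). None of these markers had an adjusted p under 0.05 against the control (edgeR, lowest 0.753). The part of these cell types in the direction of the members was not tested. Without control replicate 1 and sh2 replicate 2, left out after the data had been seen, the members' median was −0.08 with sh2 and −0.42 with sh3, and the fibroblast markers' median was 0.05 and −0.91.

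Among the collagenases, *Mmp13* cuts fibrillar collagens and *Mmp8* is the collagenase of neutrophils. *Mmp13* was at 1134, 1054 and 765 CPM with the control, 1075, 223 and 614 CPM with sh2 and 148, 1500.0 and 1067 CPM with sh3. It was thus both at its lowest and at its highest within the sh3 group, and the groups overlapped. Its log2 fold changes of −0.63 with sh2 and −0.12 with sh3 were within their SE of 0.74. Of all tested members *Mmp13* had the widest spread within groups, an SD of 1.25 on the log2 CPM scale, and 97.2% of all genes had a smaller one. *Mmp8* was at 1.45, 0.911 and 0.86 CPM with the control, 1.22, 1.3 and 1.75 CPM with sh2 and 1.2, 1.58 and 0.342 CPM with sh3. Its lowest level was in sh3 replicate 3 with 8 counts, and its log2 fold changes of 0.41 and −0.05 were within their SE of 0.53.

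The gelatinases *Mmp2* and *Mmp9* cut denatured and basement membrane collagen. *Mmp2*, made largely by fibroblasts, was at 143, 65.6 and 116 CPM with the control, 80.6, 48.6 and 121 CPM with sh2 and 49.5, 99.4 and 43.3 CPM with sh3. The lowest control tumor lay inside the range of both shRNA groups, and the log2 fold change was −0.37 with sh2 and −0.76 with sh3 (SE 0.43 each). *Mmp9*, which neutrophils store and macrophages make, was at 84.9, 27.1 and 23.5 CPM with the control, 54.3, 76.4 and 45.3 CPM with sh2 and 18.9, 37.2 and 25.7 CPM with sh3. Every sh3 tumor was below every sh2 tumor, and control replicate 1 was above all others. Against the control the log2 fold change was 0.38 with sh2 and −0.73 with sh3 (SE 0.48 each). Between the shRNAs it was −1.11 (SE 0.49), with an adjusted p of 0.673 (edgeR). Groups without overlap and lower in sh3 than in sh2 were found for 4.62% of all genes and for 2 members, *Mmp9* and *Mmp17*. Summed neutrophil markers were at 55.2 to 156 CPM with sh3 and 99.7 to 182 CPM with sh2, and their part in the *Mmp9* difference was not tested.

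The stromelysins *Mmp3* and *Mmp10* cut a broad range of matrix proteins and open other Mmp precursors. *Mmp3* was at 332, 115 and 62.3 CPM with the control, 118, 39.8 and 174 CPM with sh2 and 46.1, 133 and 56.4 CPM with sh3. Control replicate 1 stood above all others, and the remaining control tumors lay within the range of the shRNA tumors. Its estimate was a log2 fold change of −0.62 (SE 0.70) with sh2 and −1.12 (SE 0.71) with sh3. Without control replicate 1 it was 0.32 with sh2 and −0.20 with sh3. *Mmp10* was at 70.0, 43.1 and 11.7 CPM with the control, 29.8, 18.8 and 19.1 CPM with sh2 and 17.6, 23.6 and 23.7 CPM with sh3. The lowest and the highest tumor were both control tumors, and the log2 fold change was −0.88 with sh2 and −0.94 with sh3 (SE 0.51 each). Its values were −0.28 and −0.36 without control replicate 1.

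*Mmp12*, the elastase of macrophages, was the member of the Mmp family with the largest positive estimates. Its levels were 56, 82.2 and 36.1 CPM with the control, 115, 152 and 110.4 CPM with sh2 and 185, 181 and 22.2 CPM with sh3. All sh2 tumors were above all control tumors, while sh3 held the highest level and the lowest. *Mmp12* had a log2 fold change of 1.11 with sh2 and 1.16 with sh3 (SE 0.64 each), and the lowest adjusted p was 0.76 (edgeR). In the same tumors the summed macrophage markers were at 2354, 2201 and 2306 CPM with the control, 2137, 1269.8 and 2030.5 CPM with sh2 and 901, 4237 and 2772 CPM with sh3. The sh2 tumors had lower marker sums than the control beside higher *Mmp12*. The tumors with the lowest and the highest marker sum, sh3 replicates 1 and 2, had *Mmp12* at 185 and 181 CPM. The part of macrophages in the *Mmp12* levels was not tested. Groups without overlap, higher with sh2 than with the control, were found for 5.56% of all genes and for 2 members, *Mmp12* and *Adamts13*.

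Of the membrane-type enzymes, which stay on the cell surface, *Mmp14* was by far the most abundant. *Mmp14*, which opens the *Mmp2* precursor together with *Timp2*, was at 301, 262 and 199 CPM with the control, 283, 204 and 340.1 CPM with sh2 and 106, 240.1 and 179 CPM with sh3. The groups overlapped, with log2 fold changes of 0.12 with sh2, −0.54 with sh3 and −0.66 for sh3 against sh2 (SE 0.31 each). *Mmp15* was at 50.0, 27.5 and 35.2 CPM with the control, 30.9, 53.6 and 103 CPM with sh2 and 6.33, 54.8 and 15.7 CPM with sh3. Its levels within the sh3 group spread more than between any of the groups' means, and the log2 fold changes were 0.73 and −0.55 (SE 0.70 each). *Mmp24*, best known from neurons, was at 4.43, 17.7 and 11.9 CPM with the control, 6.57, 1.21 and 2.5 CPM with sh2 and 3.28, 3.86 and 3.12 CPM with sh3. All sh3 tumors were below all control tumors, and 1 sh2 tumor overlapped the lowest control tumor. Its log2 fold change was −1.72 with sh2 and −1.73 with sh3 (SE 0.64 each), the most negative of the members with either shRNA. For the mean of both it was −1.72 (SE 0.52), with an adjusted p of 0.982 (edgeR). *Mmp24* overlaps another annotated gene on the opposite strand, and the strand setting of the counting is not given in the sources used here. *Mmp16*, with at most 0.696 CPM, was lower in all sh3 tumors (0.185, 0.305 and 0.257 CPM) than in any control tumor (0.639, 0.414 and 0.696 CPM). *Mmp17* and *Mmp25* stayed between 1.02 and 5.33 CPM, and their groups overlapped the control.

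Among the Mmp genes that belong to none of these classes, *Mmp19* and *Mmp23* had the highest mean TPM. *Mmp19* was at 20.5, 21 and 21.3 CPM with the control, 22.5, 14.1 and 21.4 CPM with sh2 and 14.5, 23.7 and 15.6 CPM with sh3. Its control tumors lay close together inside the ranges of both shRNA groups, and the log2 fold change was −0.12 with sh2 and −0.22 with sh3 (SE 0.24 each). *Mmp23* was at 9.2, 4.59 and 7.12 CPM with the control, 5.22, 4.93 and 8.93 CPM with sh2 and 4.67, 6.1 and 3.12 CPM with sh3. It overlapped between all groups, with log2 fold changes of −0.13 and −0.59 (SE 0.38 each). *Mmp11*, a stromelysin by name, ranged from 17.1 to 35.6 CPM, *Mmp28* from 0.299 to 2.56 CPM and *Mmp27* from 0.128 to 0.894 CPM. All 3 overlapped between shRNA and control tumors.

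The ADAMTS proteoglycanases were lower with sh3 for all 6 tested genes and with sh2 for 5 of 6. *Adamts1* was at 49.5, 66.2 and 71.1 CPM with the control, 54.4, 47.1 and 40.5 CPM with sh2 and 43, 37 and 50.1 CPM with sh3. Only the lowest control tumor overlapped the shRNA tumors, and the log2 fold change was −0.40 (SE 0.18) with sh2, −0.52 (SE 0.19) with sh3 and −0.46 (SE 0.16) for the mean of both. *Adamts4* was at 55.9, 66.7 and 51.2 CPM with the control, 57.1, 46.4 and 49.9 CPM with sh2 and 33.8, 52.5 and 35.6 CPM with sh3. Both shRNA groups overlapped the control, with log2 fold changes of −0.18 and −0.51 (SE 0.19 each). *Adamts5*, with *Adamts4* the main aggrecan-cutting enzyme of cartilage, was at 17, 11.1 and 22.1 CPM with the control, 9.14, 7 and 11.4 CPM with sh2 and 12.8, 11.3 and 10.4 CPM with sh3. The lowest control tumor was inside the range of the shRNA tumors. Its log2 fold change was −0.87 with sh2 and −0.54 with sh3 (SE 0.28 each), and −0.71 (SE 0.24) for the mean of both. *Adamts8* was at 2.9, 2.11 and 3.73 CPM with the control, 2.4, 5.07 and 3.71 CPM with sh2 and 1.11, 1.63 and 2.44 CPM with sh3. It was lower with sh3 than with sh2 by a log2 fold change of −1.11 (SE 0.42), the estimate with the lowest unadjusted p among the members in that comparison, while each shRNA group overlapped the control (0.36, SE 0.41, and −0.75, SE 0.42). *Adamts15* was lower in all sh2 tumors (3.16, 1.79 and 4.55 CPM) than in any control tumor (6.18, 5.17 and 8.15 CPM), and sh3 spread from 0.684 to 6.61 CPM. *Adamts9* ranged from 11.6 to 20.3 CPM and overlapped between groups.

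Both tested procollagen N-proteinases, which trim new fibrillar procollagen, had all 6 shRNA tumors below all 3 control tumors. *Adamts2* was at 107, 79.3 and 82.2 CPM with the control, 72.4, 48.8 and 75.8 CPM with sh2 and 32.1, 70.8 and 60.6 CPM with sh3. The gap between the lowest control tumor and the highest shRNA tumor was small beside the spread of either. Its log2 fold change was −0.44 with sh2 and −0.71 with sh3 (SE 0.29 each), and −0.58 (SE 0.25) for the mean of both. *Adamts14* was at 3.45, 3.89 and 3.81 CPM with the control, 2.49, 1.93 and 2.59 CPM with sh2 and 2.87, 1.63 and 1.8 CPM with sh3. The control tumors lay close together above all others. Its log2 fold change was −0.67 with sh2 and −0.82 with sh3 (SE 0.32 each), and −0.75 (SE 0.27) for the mean of both. *Adamts3*, the third of these enzymes, was not tested and had at most 0.462 CPM.

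The same order held for *Adamts10*, which acts on fibrillin microfibrils and had the highest mean TPM of the other ADAMTS genes. *Adamts10* was at 23, 21.3 and 20.0 CPM with the control, 18.9, 16 and 18.5 CPM with sh2 and 16.9, 14.5 and 11.3 CPM with sh3. All shRNA tumors were below all control tumors, and it had the smallest spread within groups of the tested members (SD 0.192 on the log2 CPM scale). The log2 fold change was −0.27 with sh2 and −0.59 with sh3 (SE 0.18 each), and −0.43 (SE 0.15) for the mean of both. *Adamts10*, *Adamts14* and *Adamts2* were the 3 members with every shRNA tumor below every control tumor, an order found for 0.958% of all genes. In exact permutation tests, two-sided and not adjusted, the 6 shRNA tumors were compared with the 3 control tumors. This design cannot go below p = 0.0119 in an exact permutation test. The exact permutation tests gave p = 0.0357 for *Adamts10*, p = 0.0238 for *Adamts14* and p = 0.0714 for *Adamts2*. These 3 genes were singled out by their order in the same tumors, so these permutation p-values are not independent evidence of it. Exact permutation tests also gave p = 0.0238 for *Mmp24* and p = 0.0476 for *Adamts1*, *Adamts5* and *Mmp16*, whose groups overlapped. The exact permutation test of *Adamts13*, which was higher with shRNA, gave p = 0.0714. The adjusted p of *Adamts10*, *Adamts14* and *Adamts2* was 0.982 each (edgeR). *Adamts13*, which cuts von Willebrand factor, had the opposite order, found for 1.21% of all genes. It was at 0.256, 0.124 and 0.328 CPM with the control, 0.59, 2.95 and 0.459 CPM with sh2 and 0.462, 0.356 and 0.385 CPM with sh3. These levels rest on 3 to 61 counts per tumor, and sh2 replicate 2 alone held the 61 counts. On the TPM scale the groups overlapped, since the lowest sh3 tumor was at 0.131 TPM and the highest control tumor at 0.161 TPM. The log2 fold change was 2.46 (SE 0.77) with sh2, 0.75 (SE 0.79) with sh3, 1.61 (SE 0.70) for the mean of both and −1.71 (SE 0.74) for sh3 against sh2. Without sh2 replicate 2 the value was 1.14 with sh2, 0.94 for the mean of both and −0.40 for sh3 against sh2.

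*Adamts12*, which with *Adamts7* cuts cartilage oligomeric matrix protein, was at 24.3, 24.9 and 28.5 CPM with the control, 31, 14.7 and 20.2 CPM with sh2 and 4.72, 16.1 and 10.9 CPM with sh3. All sh3 tumors were below all control tumors, whereas sh2 spread around them. The log2 fold change was −0.24 (SE 0.40) with sh2, −1.30 (SE 0.41) with sh3 and −1.06 (SE 0.41) for sh3 against sh2, with adjusted p of 0.999, 0.753 and 0.673 (edgeR). *Adamts7* was at 24.4, 18.7 and 16.5 CPM with the control, 19.2, 12.5 and 19 CPM with sh2 and 15.8, 18 and 12.8 CPM with sh3. It overlapped between all groups, with log2 fold changes of −0.23 (SE 0.23) and −0.35 (SE 0.24). *Adamts16* ranged from 1.29 to 11 CPM, *Adamts6* from 2.91 to 8.47 CPM and *Adamts17* from 0.426 to 1.25 CPM, and all 3 overlapped between shRNA and control tumors. Counting all members without overlap, 4 were lower with sh2 than with the control (*Adamts2*, *Adamts10*, *Adamts14* and *Adamts15*), beside 5.83% of all genes. With sh3 6 were lower (*Adamts2*, *Adamts10*, *Adamts12*, *Adamts14*, *Mmp16* and *Mmp24*), beside 5.44%, and 1 higher (*Adamts13*), beside 6.78%.

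**Figure D3:**
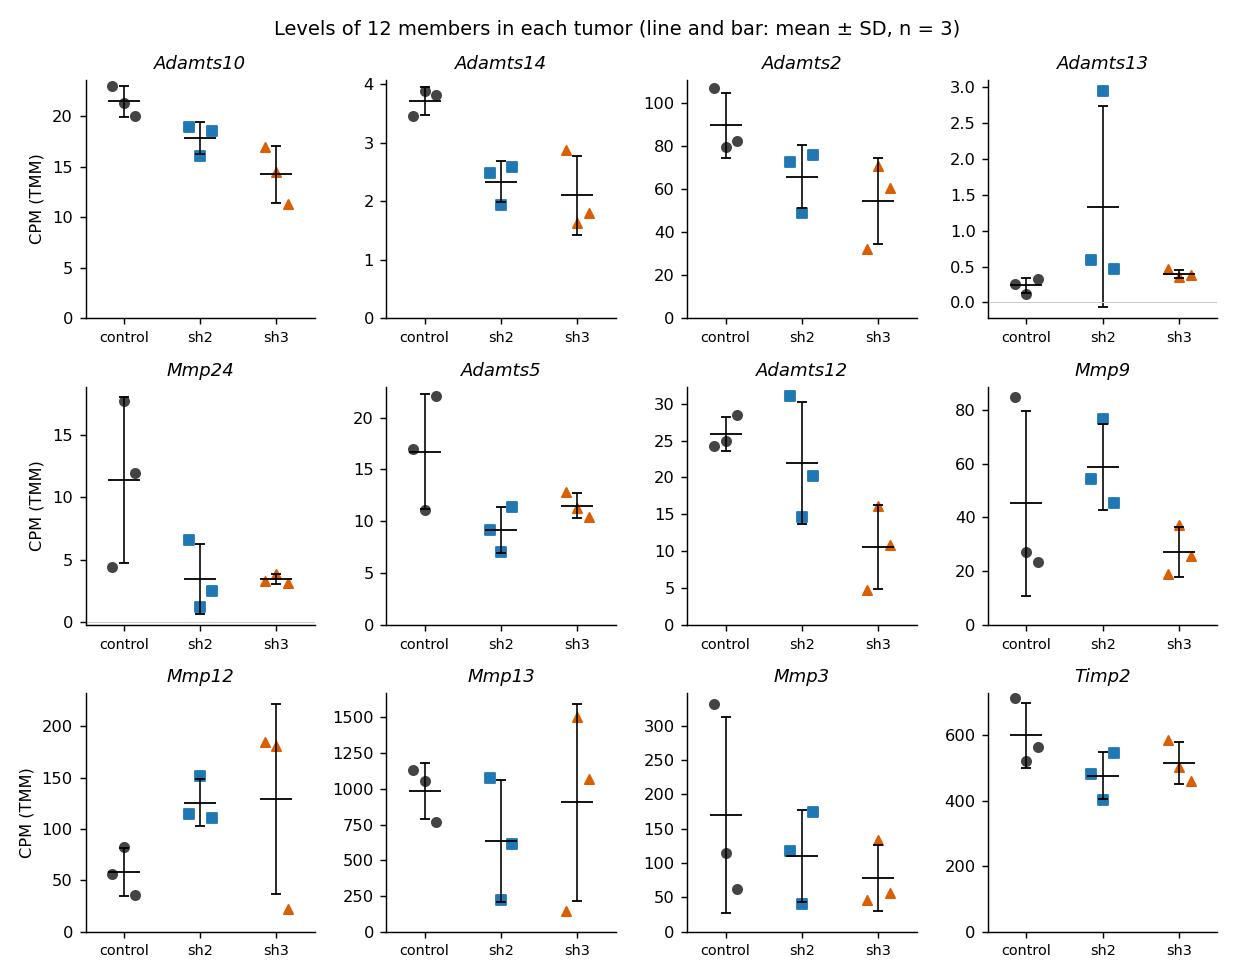
Levels of 12 members in CPM (y axis, from 0) in each control, sh2 and sh3 tumor, with 1 point per tumor and the mean ± SD of 3 tumors. *Adamts10*, *Adamts14* and *Adamts2* show every shRNA tumor below every control tumor, *Adamts13* the reverse with 1 sh2 tumor at 2.95 CPM, and *Mmp13* the widest spread.

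Against the control, the estimates of the 3 tested inhibitors were at most 0.33 in size on the log2 scale. *Timp2* was at 712, 522 and 565 CPM with the control, 481, 402 and 545 CPM with sh2 and 584, 503 and 459 CPM with sh3. The groups overlapped, and the log2 fold change was −0.33 with sh2 and −0.22 with sh3 (SE 0.18 each). *Timp1*, which stromal and inflammatory cells make on stimulation, was at 62.4, 61.5 and 51.8 CPM with the control, 45.9, 40.7 and 55.8 CPM with sh2 and 70.9, 50.1 and 37.2 CPM with sh3. Both the highest and the lowest level were found in sh3 tumors, and the log2 fold change was −0.30 and −0.15 (SE 0.23 each). *Timp3*, which binds to the matrix and also blocks ADAMTS enzymes, was at 60.4, 74.4 and 96.1 CPM with the control, 62.7, 70.5 and 115 CPM with sh2 and 65.1, 71.9 and 57.6 CPM with sh3. Its groups overlapped, with log2 fold changes of 0.10 and −0.25 against the control and −0.35 for sh3 against sh2 (SE 0.25 each). *Timp1* and *Timp3* each overlap a synapsin gene on the opposite strand.

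Levels were also summed per tumor and family on the TPM scale. The Adamts genes summed to 144, 146 and 156 TPM in the control tumors, 136, 94.3 and 115 TPM in the sh2 tumors and 85.7, 89.6 and 83.6 TPM in the sh3 tumors. On this scale every shRNA tumor was below every control tumor, and the sh3 tumors lay close together below all others. TPM are not TMM-scaled, and the 2 scales place tumors differently. *Timp2* was at 503 CPM in sh3 replicate 2 and 522 CPM in control replicate 2, but at 257 and 339 TPM. TMM-scaled sums were not made, and the closeness of the sh3 tumors is stated for TPM only. In CPM the sh3 tumors did not lie below all others for *Adamts4*, *Adamts1* and *Adamts2*, the Adamts genes with the highest mean TPM. *Adamts4* was at 33.8, 52.5 and 35.6 CPM with sh3, beside 46.4 CPM in sh2 replicate 2. *Adamts1* was at 43, 37 and 50.1 CPM, beside 40.5 CPM in sh2 replicate 3. *Adamts2* was at 32.1, 70.8 and 60.6 CPM, beside 48.8 CPM in sh2 replicate 2. The Mmp genes summed to 2097, 1575 and 1221 TPM with the control, 1685, 676 and 1399 TPM with sh2 and 532, 1618 and 1182 TPM with sh3. These sums overlapped between all groups, and *Mmp13* made up between 24.5% (sh3 replicate 1) and 70.9% (sh3 replicate 3) of them. The Timp genes summed to 652, 539 and 581 TPM with the control, 475, 377 and 549 TPM with sh2 and 599, 389.7 and 379.7 TPM with sh3. *Timp2* made up 62.9% to 70.3% of the Timp sum in every tumor. The Mmp sum was 0.889 times the Timp sum in sh3 replicate 1 and 4.15 times in sh3 replicate 2, and 1.79 to 3.55 times in the other tumors. The lowest and the highest balance of transcripts were thus found in the same group. No test was made of these sums.

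**Figure D4:**
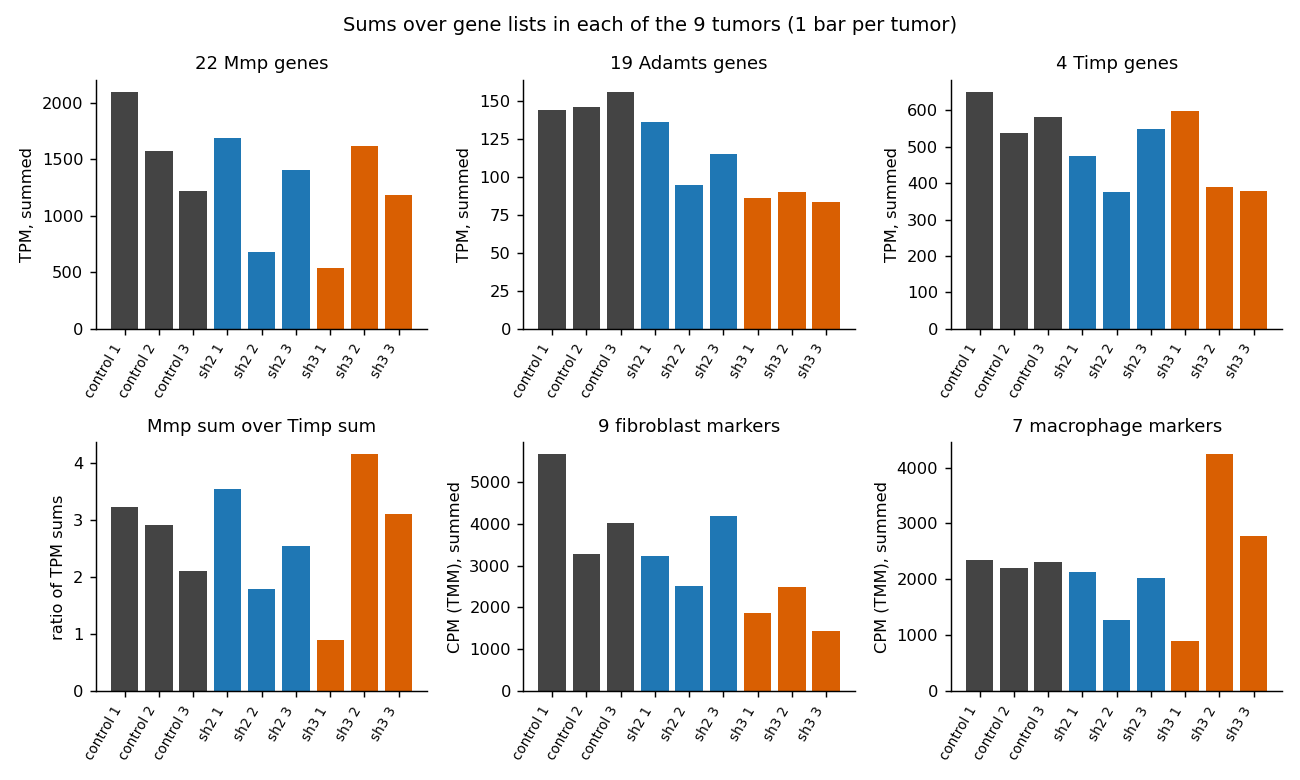
Sums over gene lists for each of the 9 tumors (1 bar per tumor, axes from 0), in TPM for the Mmp, Adamts and Timp genes, as the ratio of the Mmp and Timp sums, and in CPM for fibroblast and macrophage markers. The Adamts sums of the sh3 tumors (83.6 to 89.6 TPM) and their fibroblast sums (1437 to 2496 CPM) lie below all control tumors, while the Mmp and Timp sums overlap.

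Tumors within a group differed more for these genes than for most genes. The median SD within groups was 0.448 on the log2 CPM scale for the 36 members and 0.292 for all 14725 genes. Against the mean of the 9 tumors, the median deviation of the members was 0.43, 0.20 and 0.13 on the log2 scale in the control tumors, 0.17, −0.38 and 0.16 in the sh2 tumors and −0.33, 0.07 and −0.43 in the sh3 tumors. Low values were thus found in sh2 replicate 2, sh3 replicate 1 and sh3 replicate 3. Of the 36 tested members 12 had their highest log2 CPM in control replicate 1 and 7 in control replicate 3, while 12 had their lowest in sh3 replicate 1 and 11 in sh3 replicate 3.

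Genes that act on these enzymes or are cut by them were followed as further lists. Among 15 tested substrates of the 18 listed, all had lower estimates with sh3 and 13 with sh2, with medians of −0.76 and −0.24. With sh2 the median was −0.14 without control replicate 1 and −0.03 without sh2 replicate 2 as well. At an unadjusted p under 0.05 there were 8 with sh3, beside 3.13% of all genes in this direction, and none had an adjusted p under 0.05 (lowest 0.753, edgeR). The substrate list shares *Col1a1*, *Col1a2*, *Col3a1* and *Dcn* with the fibroblast markers. *Fbn1*, the fibrillin that *Adamts10* acts on, was at 155, 152 and 194 CPM with the control, 149, 88.2 and 150.3 CPM with sh2 and 101, 109 and 86.8 CPM with sh3. All shRNA tumors were below all control tumors, and the log2 fold change was −0.37 with sh2 and −0.76 with sh3 (SE 0.21 each). *Vcan*, the versican cut by several of the proteoglycanases, was at 34.4 to 40.0 CPM with the control, 32.9 to 42.1 CPM with sh2 and 18.2 to 38.3 CPM with sh3, and overlapped.

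Of 25 tested regulators of the 28 listed, 13 were higher and 12 lower with sh2, and 6 higher and 19 lower with sh3, with medians of 0.03 and −0.47. None had an adjusted p under 0.05 (lowest 0.999 and 0.753, edgeR). The list is broad and also holds Adam genes and the ADAMTS-like Adamtsl genes, so its medians do not describe inhibitors and activating proteases alone. *Reck*, a membrane-anchored inhibitor of several Mmp enzymes, was at 3.41, 2.28 and 4.01 CPM with the control, 1.94, 1.45 and 1.88 CPM with sh2 and 1.2, 2.18 and 1.58 CPM with sh3. *Reck* and *Fbn1* had every shRNA tumor below every control tumor, an order found for 0.958% of all genes. It was found for 2 of the 25 regulators and 2 of the 15 substrates, the others being *Serpinb2* and *Nid1*. *Reck* and *Fbn1* were picked after their values were seen. *Reck* had log2 fold changes of −0.88 and −0.96 (SE 0.36 each). *Bsg*, which encodes basigin and is also known as the inducer of Mmp enzymes, was at 460.4, 416 and 327 CPM with the control, 418, 401 and 624 CPM with sh2 and 369, 540.4 and 394 CPM with sh3. Its groups overlapped, and the log2 fold change was 0.26 and 0.12 (SE 0.23 each).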

How the data were processed

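RNA of 9 tumors was analysed as raw counts. The authors deposited counts per gene made with STAR 2.5.3a (mm10, per the submitters' processing notes) and featureCounts, beside TPM and a CPM signal; both were recomputed from the counts as a check (9488 genes with over 200 counts, 100.0% within 0.001). Deposited fold changes and p-values of each shRNA were not used.

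All tumors were fitted together with edgeR 4.0.16 in R 4.3.3 (filterByExpr by group, TMM, robust quasi-likelihood fit, 1 coefficient per group), with Benjamini-Hochberg adjustment over 14725 genes and a threshold of 0.05. CPM in the text are TMM-scaled. Single genes were also compared by exact permutation of tumors on log2 CPM (prior count 2), whose smallest p is 0.1 for 3 against 3. Alternatives were DESeq2 1.42.0, its size factors, the likelihood ratio test, other filters, fewer groups, merged shRNA tumors, a replicate block, and each tumor left out. Fits were tested on simulated data. Named genes were the Timp genes, the 2 most abundant members per role, the 5 with the lowest p per comparison, and those with 1 group apart from all other tumors; the remaining tested members are given by range, and a few genes of the pathway lists were chosen after their values were seen. Members and lists were chosen with earlier results of these data known. Adgre1 was matched as Emr1, promoters were found for 31 members, and coordinates come from GENCODE M21. Nothing says that tumors came from separate cultures, so p-values measure only the spread between these tumors.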

Additional observations from a re-analysis of the deposited data

Results flagged for a closer look

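*Mmp9* is listed because every sh2 tumor lay above and every sh3 tumor below the mean of the control tumors on the log2 CPM scale. The log2 fold change of sh3 against sh2 was −1.11 (SE 0.49), and the adjusted p of 0.673 (edgeR, over all genes tested) did not pass the threshold. *Mmp9* was at 54.3, 76.4 and 45.3 CPM with sh2 and at 18.9, 37.2 and 25.7 CPM with sh3, while the control tumors held both 84.9 CPM and 23.5 CPM. Without control replicate 1, *Mmp9* was no longer lower with sh3 than with the control (log2 fold change 0.09). The check of single tumors against their group was not made, since it needs groups of at least 4 and each group here has 3.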

How the results depend on the processing

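No member had an adjusted p under 0.05 under any alternative, the lowest being 0.195 with sh3 in DESeq2. The count of all genes past the threshold, 0 in edgeR's quasi-likelihood test, was 2, 41, 9 and 46 in DESeq2's Wald test for sh2, sh3, the mean of both and sh3 against sh2, and 8, 8 and 14 in edgeR's likelihood ratio test for the last 3. The members' median log2 fold change stayed negative in all settings. With 1 tumor left out it lay between −0.34 and −0.17 with sh2, −0.69 and −0.42 with sh3, −0.46 and −0.23 for the mean of both, and −0.43 and −0.18 for sh3 against sh2. The replicate numbers do not pair the tumors: deviations of same-numbered tumors had a mean correlation of −0.102. With the replicate block the medians were −0.28, −0.56, −0.34 and −0.30, and no call was changed.

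Of 64 log2 fold changes of named genes, 53 kept their direction under every alternative and 11 turned in at least 1, the cause of which was not tested. Without control replicate 1 and sh2 replicate 2, a choice made after seeing the data, the values with sh2 turned to 0.15 (*Mmp2*), 0.72 (*Mmp3*), 0.06 (*Mmp19*), 0.27 (*Mmp23*) and 0.12 (*Adamts7*), and with sh3 to 0.20 (*Mmp8*) and 0.09 (*Mmp9*). With 1 tumor left out, the ranges with sh2 were −1.09 to 0.32 (*Mmp3*), −0.05 to 0.30 (*Mmp14*), −0.25 to 0.07 (*Mmp19*), −0.45 to 0.12 (*Mmp23*) and −0.20 to 0.29 (*Timp3*). With sh3 they were −0.69 to 0.38 (*Mmp13*), −0.48 to 0.35 (*Mmp8*), −1.05 to 0.09 (*Mmp9*) and −0.42 to 0.03 (*Timp1*). In CPM in place of TPM, the mean share of *Mmp13* in the Mmp sum was 50.1% in place of 49.5%. The targeted gene *Tmprss11bnl*, with at most 51 counts in a tumor, had log2 fold changes of −2.89 with sh2 and −2.36 with sh3. Its adjusted p were 0.999 and 0.753 (edgeR), so the main test did not call these drops either. The spread within groups was 0.448 (log2, median of the members) with 3 tumors a group. Not only small differences could therefore go uncalled, and an adjusted p above the threshold does not show that levels were alike.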
